A study of Mus musculus with 12 samples.

Results

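The 186 genes described here are long noncoding RNAs (lncRNAs) of the mouse liver that carry only a placeholder symbol, either Gm followed by digits (104 genes) or a clone name that ends in Rik (82 genes). They were chosen by their read counts. Of 9025 such genes of GENCODE type lncRNA in a table of 55414 genes, 186 had at least 10 reads in each of the 12 libraries, whereas 5970 had no read in any library. A further 466 reached a mean of 10 reads in some group but fell below 10 in some library, so a lncRNA that was silent under one treatment is not among the members. At the boundary, 10 members had exactly 10 reads in their lowest library, among them 1810034E14Rik and Gm15889, and 13 genes just outside had 9, among them C730036E19Rik with up to 592 reads in another library and Gm17024 with up to 298.

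A lncRNA is a transcript without a long open reading frame. Many lncRNAs lie antisense to a coding gene or start next to its promoter, some act on transcription near their own locus, and some are known mainly as hosts from whose introns small nucleolar RNAs (snoRNAs) or microRNAs are cut. The glucocorticoid receptor (GR) is a hormone-activated transcription factor that switches hepatocytes to gluconeogenesis, and dexamethasone (DEX) is a synthetic glucocorticoid (GC) that activates it. An excess of ferrous iron drives lipid peroxidation and antioxidant programmes in the liver.

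Female C57BL/6J mice aged 8 to 12 weeks received intraperitoneal 0.9% NaCl or 300 mg/kg FeSO4, followed after 6 h by PBS or 10 mg/kg DEX. The liver was collected 2 h after that second injection, 8 h after the first. Each of the 4 groups, NaCl/PBS, NaCl/DEX, FeSO4/PBS and FeSO4/DEX, held 3 mice, and every mouse received both injections. The comparisons ask how an iron challenge and GCs each change liver RNA and whether the response to GCs is kept in iron-challenged mice. Whole liver was used, so that fewer cells of a type and less RNA per cell cannot be told apart.

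Between 16335651 and 23827340 reads per library fell on genes, and all 186 members were among the 13857 genes tested. The library of FeSO4/PBS mouse 1 stood apart from the others of its group, with a chi-square per gene of 89.5 and 71.4 against the other mice, where pairs within the other groups gave 18.3 to 37. The 6 hepatocyte markers summed to at least 1.77e+06 normalized counts in each library, 3 of them rising and 0 falling after FeSO4 and 2 rising and 0 falling after DEX in NaCl mice, and 4 pancreatic markers to at most 1.01. Among 26 listed targets of GR, DEX raised 18 and lowered 0 in NaCl mice, and FeSO4 raised 21 and lowered 3. After FeSO4, 16 of 23 tested genes of ferroptosis and the NRF2 response rose and 1 fell, as did 12 and 3 of 28 iron and heme genes, 28 and 1 of 33 stress transcription factors, and 7 and 7 of 19 clock genes. All 5 Kupffer cell markers fell after FeSO4, from a summed 6197 to 7152 normalized counts in NaCl/PBS mice to 3251 to 3781 in FeSO4/PBS mice. The 4 tested neutrophil markers rose, and the list summed to between 46.6 and 179.5 in NaCl/PBS mice and between 638 and 812 in FeSO4/PBS mice. Of 5 cholangiocyte markers, 2 rose. Those of sinusoidal endothelium, stellate cells, lymphocytes and mesothelium were mixed or fell, with 1 higher and 2 lower, 1 higher and 2 lower, 0 higher and 1 lower and 0 higher and 1 lower. After DEX in NaCl mice 1 cholangiocyte marker was lower, 1 sinusoidal endothelial marker was higher and 1 lower, and 0 markers of the Kupffer, neutrophil, stellate, lymphocyte and mesothelial lists were called. The part of cell composition in the changes of the members was not tested.

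The members were weakly expressed. Their median level was 61.5 normalized counts, or 18.6 per kb of exon, against 37.4 per kb for all tested genes and 80.6 per kb for the coding genes nearest to them. They had a median of 4 exons and 3769 exonic bases, and 39 were single-exon genes. The counts of all members together made up 0.156% to 0.170% of the reads in NaCl/PBS mice, 0.133% to 0.179% in NaCl/DEX mice, 0.0995% to 0.120% in FeSO4/PBS mice and 0.0966% to 0.106% in FeSO4/DEX mice. All 6 FeSO4-treated libraries lay below all 6 NaCl-treated ones on this share, and so they did without Gm43305, where NaCl/DEX mice had 0.120% to 0.128%. Most genes lost share as well, so the drop is only in part one of the members. With library size as the only scaling, the median log2 fold change of FeSO4/PBS against NaCl/PBS was -0.34 for all tested genes and -0.72 for the members.

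The most abundant member, Gm43305, reached 2764 normalized counts on average, followed by 0610005C13Rik with 1967 and 9130016M20Rik with 1264. Per kb of exon, 9130016M20Rik (555 normalized counts) and Gm43305 (547) were ahead of 0610005C13Rik (372). B630019A10Rik, 1810008I18Rik, Gm3734, 9330121J05Rik and Gm20319 followed in normalized counts and lay between 76.0 and 164 per kb. With the exception of 9330121J05Rik and Gm43305, which rose after FeSO4, and of 1810008I18Rik and Gm3734, which did not pass the test, these abundant members fell after FeSO4.

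In the genome, 99 members overlapped their nearest coding gene on the opposite strand and 18 on the same strand. A further 23 lay head to head with it (divergent), 22 downstream and 20 upstream of it on the same strand, and 4 tail to tail (convergent). The 5′ end of 43 members lay within 1000 bp of that of the coding gene. Exonic bases were shared with an opposite-strand coding exon in 93 members, with a same-strand one in 12, and with none in 84. The libraries were stranded, but the strand setting of the count is not given in the sources used here, so reads of antisense pairs may not be told apart in every case. Gm48604 and Gm17066 lie wholly inside exons of coding genes on their own strand, Hinfp and Rbm26, and their counts are uncertain.

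The reads were 100 bases long, and a read that fits several places in the genome is not counted by the counter used. For 137 members every 100-base window of exon occurred at 1 place in GRCm39, and for 174 members at least 90% of windows did. Gm43305 was the lowest of all with 24.6%, its median window occurring at 5 places, followed by Gm42047 with 25.3% and Gm20186 with 34.0%. The 300 bases around the RefSeq start of Gm43305 occur at both ends of its gene, 4969 bp apart, at chr14:54534896-54535195 and chr14:54529927-54530226 on the minus strand. The values of these 3 members are therefore uncertain, since reads of near-identical copies may be lost or misplaced.

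FeSO4 lowered more members than it raised. Compared with NaCl/PBS mice, FeSO4/PBS mice had 30 members higher and 71 lower at an edgeR FDR of 0.05 or less, which is 16.1% and 38.2% of the members. Over all tested genes, 27.2% were higher and 27.3% lower, and over the 11231 tested genes that also had 10 reads in each library 28.9% and 27.2%. Beyond an LFC of 1 (log2 fold change), 21 members were higher and 48 lower, against 12.5% and 14.7% of all tested genes. The median LFC of the members was -0.40 and that of all tested genes -0.02. With library size as the only scaling the median of all genes moved to -0.34 and that of the members to -0.72. The members then split into 20 higher and 94 lower, and all tested genes into 2285 higher and 5829 lower. The gap between both medians was -0.39 under each of 3 scalings. A scaling factor shifts all genes nearly alike, so this gap could hardly change and is no check on the excess of falls. The heat map of all members shows the 3 FeSO4/PBS mice and the 3 FeSO4/DEX mice with the same broad pattern.

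**Figure D1:**
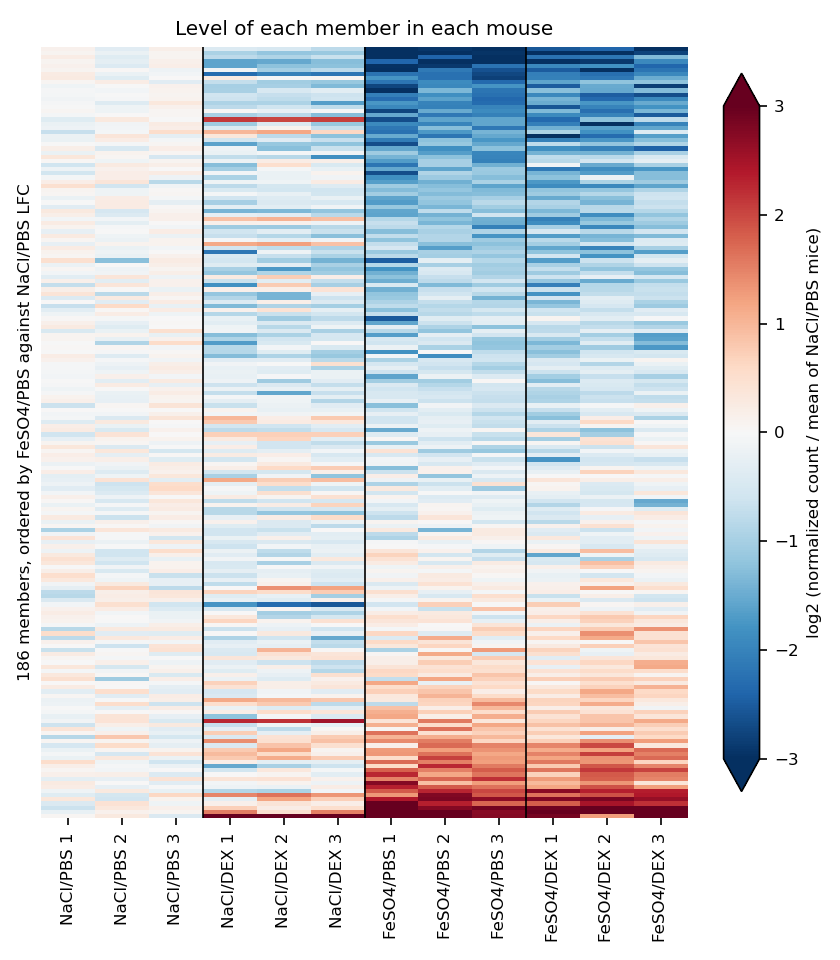
Each row is 1 of the 186 members and each column 1 of the 12 mice, and the colour gives the log2 ratio of the normalized count to the mean of the NaCl/PBS mice, with values beyond 3 in size drawn at the end colours. Rows are ordered by the LFC of FeSO4/PBS against NaCl/PBS. The blue upper block is larger than the red lower block, and 71 members passed the test as lower and 30 as higher.

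The members with the largest rises included 3 that host snoRNAs, which guide the modification of ribosomal RNA. Gm15832 overlaps Rnf149 on the same strand and holds Snord89. Its normalized counts were 31.6, 40.2 and 38.9 in NaCl/PBS mice and 481, 431 and 244 in FeSO4/PBS mice, giving an LFC of 3.39 ± 0.35 (SE, edgeR FDR = 2.66e-06). Since 39.2% of its exonic bases lie in same-strand coding exons, its count is uncertain. Rnf149, a ubiquitin ligase gene, had an LFC of 1.36. 2410006H16Rik (chr11:62493536-62495725, plus strand) holds Snord49b, Snord49a and Snord65 and had 124, 88.8 and 106 normalized counts against 537, 377 and 330.3 (LFC 1.96 ± 0.23, FDR = 1.05e-05). All its exonic bases lie opposite to exons of Lrrc75a, a gene near the detection limit here with 10.8, 45.8 and 8.46 normalized counts in NaCl/PBS mice and 26.2, 16.3 and 7.65 in FeSO4/PBS mice. 1110038B12Rik, antisense to the sialidase gene Neu1 and host of Snord52, had 128, 108 and 83.8 against 722, 198 and 256 (LFC 1.88 ± 0.40, FDR = 0.00116), with FeSO4/PBS mouse 1 well above the rest. These 3 are all the members that hold a gene annotated as snoRNA, and the group was formed after its values had been seen. 2900076A07Rik, a microRNA host described below, also holds Gm54927, annotated as a small Cajal body RNA (scaRNA), and it fell after FeSO4.

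Of the 6 members that host microRNAs, 0 rose after FeSO4 and 2 fell, beside 38.2% of all members and 27.3% of all tested genes that were lower. The 6 and 3 hosts are few, and a difference between the host types was not tested. 2900076A07Rik, which holds Mir1839, fell from 49.6, 34.6 and 42.3 to 26.2, 16.3 and 15.3 normalized counts (LFC -1.12 ± 0.31, FDR = 0.00789), and 2310001H17Rik, antisense to Clec2d, fell by 1.20 on the log2 scale (FDR = 0.00068). A330023F24Rik, host of the miR-29 genes Mir29b-2 and Mir29c, had an LFC of 0.43 (FDR = 0.0813), and 6720427I07Rik, host of 3 let-7 genes, had -0.19 (FDR = 0.573). The libraries measured polyadenylated RNA, so the microRNAs themselves were not measured. Their mature sequences from RefSeq (GRCm38.p6) are shown because 1 host carries several copies of a seed, here bases 2 to 8 in capitals, and because Mir1839 lies in a host that fell. The 3 let-7 forms share the seed GAGGUAG and both miR-29 forms the seed AGCACCA.
let-7a-5p: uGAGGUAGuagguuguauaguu
let-7d-5p: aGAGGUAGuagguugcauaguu
let-7f-5p: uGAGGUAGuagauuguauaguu
miR-29b-3p: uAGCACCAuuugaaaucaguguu
miR-29c-3p: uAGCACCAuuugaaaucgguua
miR-1839-5p: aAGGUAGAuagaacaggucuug

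Of the other members with the largest rises after FeSO4, 9330121J05Rik (chr3:62244945-62247953, minus strand) lies antisense to Arhgef26, a guanine nucleotide exchange factor gene. Its normalized counts rose from 69.0, 135 and 119 to 937, 719 and 802 (LFC 2.94 ± 0.21, FDR = 1.18e-07), and they were 807, 988 and 883 in FeSO4/DEX mice. All 6 iron-treated mice lay above all 6 others. Arhgef26 itself rose by an LFC of 1.45 ± 0.25, and 72.7% of the exonic bases of 9330121J05Rik lie opposite to coding exons. Gm27252, antisense within Klf13, a Krüppel-like transcription factor gene, went against its neighbour. It rose from 37.4, 67.3 and 45.7 to 515, 252 and 167 (LFC 2.65 ± 0.36, FDR = 3.25e-05) while Klf13 fell from 1654, 1585 and 1911 to 585, 900.3 and 630.0 (LFC -1.28 ± 0.16). It shares no exonic base with a coding gene.

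2310034O05Rik (LFC 2.63 ± 0.29) lies 36683 bp from Tmem150c, which was too low to be tested. Its counts were 38.8, 20.6 and 33.0 in NaCl/PBS mice and 163, 217 and 199 in FeSO4/PBS mice. 4833422C13Rik, antisense to the acyl-CoA thioesterase gene Acot12, rose by 2.11 ± 0.40 and E330011O21Rik, antisense to Cxadr, the coxsackievirus and adenovirus receptor gene, by 2.05 ± 0.26. Both coding genes were higher as well, Acot12 by 0.56 (FDR = 0.00946) and Cxadr by 1.08 (FDR = 0.00048). In these 3 lncRNAs no NaCl/PBS mouse reached the level of a FeSO4/PBS mouse, as the rule that named the largest rises required. Such upward separation was found in 15.6% of the members and 29.0% of all tested genes.

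Gm43305 had the largest rise of all members, an LFC of 4.61 ± 0.86 (FDR = 0.000477). Its normalized counts were 128, 151 and 91.4 in NaCl/PBS mice and 6991, 1166 and 835 in FeSO4/PBS mice. Mouse 1 was far above the other FeSO4/PBS mice, and without it the LFC was 3.03 (FDR = 0.00108). The nearest coding gene, the olfactory receptor gene Or6e1, was too low to be tested.

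The largest fall was that of A730017L22Rik (LFC -3.14 ± 0.27, FDR = 5.91e-07), which went from 253, 182 and 262 normalized counts to 19.2, 30.5 and 29.3. It overlaps Dnaaf9, an assembly factor gene of ciliary dyneins, on the same strand, starts 10 bp from the start of Dnaaf9 and shares 3.09% of its exonic bases with coding exons. Dnaaf9 fell by an LFC of -1.58 ± 0.22. Gm33989, downstream of the zinc finger gene Zfp619, had the smallest FDR of all members and went from 979.6, 813 and 984 to 112, 89.5 and 119.9 (LFC -3.11 ± 0.18, FDR = 3.57e-08). Zfp619 was far less abundant, with 30.2, 37.4 and 46.6 normalized counts before and 7.06, 11.2 and 15.3 after FeSO4 (LFC -1.77 ± 0.42).

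9030622O22Rik lies 2227 bp downstream of Foxa2, on the same strand. FOXA2 is a pioneer transcription factor of hepatocytes. The lncRNA fell from 291, 281 and 246 to 26.2, 63.1 and 44.6 normalized counts (LFC -2.61 ± 0.31, FDR = 9.26e-06), and Foxa2 from 386, 471 and 562 to 286, 159 and 173 (LFC -1.19 ± 0.23, FDR = 0.000667). In FeSO4/DEX against NaCl/DEX mice the pair gave -1.94 and -1.72. In both comparisons, which share no mouse, lncRNA and coding gene were lower.

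Gm5524 (LFC -2.96 ± 0.29) is the member farthest from a coding gene, 873256 bp from Spata31e5, and fell from 462, 307 and 417 to 34.3, 75.3 and 42.1. 1810034E14Rik fell by 2.86 on the log2 scale and Gm17753 by 2.67. The coding genes they overlap on the opposite strand, Cdc14b, a phosphatase gene, and Triobp, an actin-binding protein gene, fell too, with LFCs of -1.69 and -1.17. 1810019D21Rik, antisense to the splicing regulator gene Esrp2, went from 549.5, 402 and 435 to 98.8, 97.7 and 70.1 (LFC -2.37 ± 0.18, FDR = 1.66e-07), and Gm15318, antisense to the trefoil factor gene Tff1, from 268, 173 and 225 to 65.5, 46.8 and 31.9 (LFC -2.19 ± 0.26). Tff1 was too low to be tested.

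Of the abundant members, 0610005C13Rik overlaps Bcat2, a branched-chain aminotransferase gene, on the opposite strand. It fell from 3255, 2792 and 3105 to 1237, 1363 and 1214 (LFC -1.26 ± 0.11, FDR = 7.25e-07), and Bcat2 from 465, 358 and 424 to 62.5, 65.1 and 89.3 (LFC -2.53 ± 0.27). Gm20319, antisense to the interleukin 1 receptor accessory gene Il1rap, fell by an LFC of -1.20 ± 0.15 where Il1rap had -0.11 (FDR = 0.463). 9130016M20Rik, 1088 bp downstream of A1cf, the gene of a cofactor of ApoB mRNA editing, had an LFC of -0.86 ± 0.18 and A1cf of -1.17 ± 0.31. B630019A10Rik, 247 bp upstream of the sialyltransferase gene St6gal1, had -0.51 and St6gal1 -0.47. 1810008I18Rik had -0.85 (FDR = 0.051) and Gm3734 0.40 (FDR = 0.501), and both varied widely within groups, Gm3734 from 252 to 1181 among FeSO4/PBS mice.

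**Figure D2:**
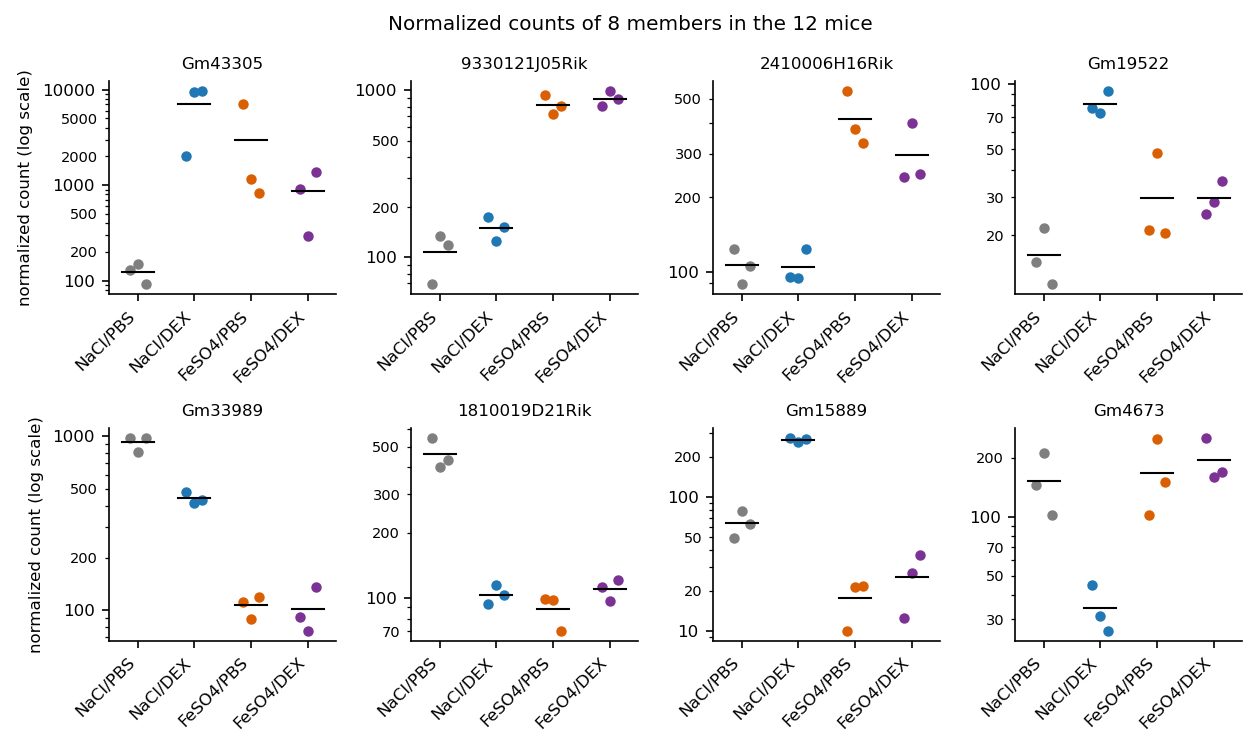
Points are the normalized counts of single mice (log axis, 3 mice per group) for 8 members, and bars are group means. The iron-treated mice sit above the others for 9330121J05Rik and 2410006H16Rik and below them for Gm33989, and for 1810019D21Rik the NaCl/PBS mice stand above all 9 others. For Gm15889 and Gm19522 the NaCl/DEX mice lie above all others, and for Gm4673 below all others.

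Promoters are shown for members with the largest changes that have an entry in a RefSeq table, as 116 of the 186 members have. Each run covers the 250 bases before and the 50 bases after the RefSeq start, the latter in capitals, and each was found at exactly 1 place on its chromosome in GRCm39. They are given so that the starts of the most responsive lncRNAs can be set beside their neighbours, as the start of A730017L22Rik lies in a GC-rich stretch (76% G or C) that also holds the start of Dnaaf9. The start of Gm33989 in RefSeq lies 8182 bp inside the GENCODE gene, and the other starts lie within 63 bp of the GENCODE ones.
Gm27252 (rose after FeSO4, chr7:63545882-63546181, plus strand): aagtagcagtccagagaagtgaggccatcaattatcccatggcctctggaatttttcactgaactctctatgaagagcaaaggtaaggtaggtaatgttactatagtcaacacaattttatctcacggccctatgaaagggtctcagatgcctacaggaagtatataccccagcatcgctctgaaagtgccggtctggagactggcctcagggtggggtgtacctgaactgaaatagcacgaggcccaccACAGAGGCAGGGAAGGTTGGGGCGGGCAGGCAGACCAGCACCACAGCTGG
A730017L22Rik (fell after FeSO4, chr2:130748267-130748566, minus strand): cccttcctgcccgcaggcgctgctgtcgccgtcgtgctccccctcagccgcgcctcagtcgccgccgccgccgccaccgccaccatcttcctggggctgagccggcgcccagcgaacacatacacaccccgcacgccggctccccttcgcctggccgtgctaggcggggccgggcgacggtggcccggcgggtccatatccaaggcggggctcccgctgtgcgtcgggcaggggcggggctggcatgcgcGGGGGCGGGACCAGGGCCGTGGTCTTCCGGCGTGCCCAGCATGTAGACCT
Gm33989 (fell after FeSO4 and DEX, chr7:39201672-39201971, plus strand): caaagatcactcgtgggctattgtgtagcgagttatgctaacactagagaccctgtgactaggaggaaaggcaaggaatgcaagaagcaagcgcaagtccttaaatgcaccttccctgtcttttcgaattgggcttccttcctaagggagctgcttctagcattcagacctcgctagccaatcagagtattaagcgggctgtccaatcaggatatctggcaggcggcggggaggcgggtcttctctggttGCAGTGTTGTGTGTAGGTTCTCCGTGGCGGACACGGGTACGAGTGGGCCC
Gm19522 (rose after DEX, chr16:42732384-42732683, minus strand): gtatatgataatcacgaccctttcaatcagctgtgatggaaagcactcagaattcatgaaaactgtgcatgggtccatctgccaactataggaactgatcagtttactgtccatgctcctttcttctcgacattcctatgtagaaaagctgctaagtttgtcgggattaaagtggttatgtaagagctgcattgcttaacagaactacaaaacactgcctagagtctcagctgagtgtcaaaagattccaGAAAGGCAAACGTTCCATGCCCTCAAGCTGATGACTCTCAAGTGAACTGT
1810019D21Rik (fell after FeSO4 and DEX, chr8:106861782-106862081, plus strand): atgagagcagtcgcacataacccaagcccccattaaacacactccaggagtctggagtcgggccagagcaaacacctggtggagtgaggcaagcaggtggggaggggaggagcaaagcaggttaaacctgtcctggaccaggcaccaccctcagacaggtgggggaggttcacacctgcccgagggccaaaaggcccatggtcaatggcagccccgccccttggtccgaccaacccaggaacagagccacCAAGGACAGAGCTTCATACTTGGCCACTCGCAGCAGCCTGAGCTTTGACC
1810034E14Rik (fell after FeSO4 and DEX, chr13:64396264-64396563, plus strand): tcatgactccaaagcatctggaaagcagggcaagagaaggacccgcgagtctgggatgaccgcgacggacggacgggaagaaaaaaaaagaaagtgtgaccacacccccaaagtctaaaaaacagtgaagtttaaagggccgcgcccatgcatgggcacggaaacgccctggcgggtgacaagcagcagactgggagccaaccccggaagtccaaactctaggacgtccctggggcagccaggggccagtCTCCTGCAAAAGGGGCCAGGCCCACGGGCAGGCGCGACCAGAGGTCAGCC

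None of these 6 windows held the letters of 4 motifs searched on both strands, the core of the GR element ACANNNTGT, the core of the antioxidant response element TGACNNNGC, the E-box CACGTG and the cAMP response element TGACGTCA. Over the 32851 promoters of the table, 6.85%, 12.4%, 7.15% and 1.79% held them, and over the 181 promoters of members 7.73%, 22.7%, 6.63% and 1.10%. Members can have several overlapping entries, and the absence of the letters says nothing of the factors.

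DEX alone changed fewer members, and again more fell than rose. NaCl/DEX mice had 8 members higher and 21 lower than NaCl/PBS mice, 4.30% and 11.3% of the members, where 6.5% and 7.15% of all tested genes were higher and lower and 7.32% and 7.38% of those with 10 reads in each library. Beyond an LFC of 1, 6 members were higher and 13 lower, against 2.97% and 3.41% of all tested genes. The median LFC was -0.30 for the members and -0.02 for all tested genes. Leaving out NaCl/DEX mouse 3 left 12 members lower, leaving out NaCl/PBS mouse 1 left 5 higher, and leaving out FeSO4/PBS mouse 1, which enters the estimate of spread, gave 13 higher. With library size as the only scaling 8 members were higher and 37 lower, beside 618 and 1776 of all tested genes. The median LFC of all tested genes then moved to -0.18 and that of the members to -0.45.

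The largest rise after DEX was again that of Gm43305, with 2015, 9563 and 9643 normalized counts in NaCl/DEX mice (LFC 5.84 ± 0.90, FDR = 0.000595). Gm19522, antisense within the transcription factor gene Zbtb20, rose from 15.1, 21.5 and 11.9 to 77.3, 73.3 and 92.6 (LFC 2.33 ± 0.35, FDR = 0.000473). Zbtb20 rose by an LFC of 0.66 ± 0.15 (FDR = 0.0102). The pair shares no exonic base.

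Gm15889, 4937 bp upstream of Herpud1 on the same strand, rose from 49.6, 78.5 and 62.6 to 277, 256 and 269.8 after DEX (LFC 2.08 ± 0.29, FDR = 0.000238), whereas after FeSO4 it fell to 10.1, 21.4 and 21.7 (LFC -1.85 ± 0.35, FDR = 0.000491). Herpud1, which serves the degradation of misfolded proteins at the endoplasmic reticulum, rose under both, by 1.09 ± 0.12 after DEX and 0.54 ± 0.12 after FeSO4. Gm16573, antisense to Parp4, and Gm49668, antisense to Fam120b, had the same opposite signs. Gm16573 had 1.09 ± 0.19 after DEX and -1.04 ± 0.20 after FeSO4, and Gm49668 0.94 ± 0.23 and -1.14 ± 0.25. These 3 were the members called higher after DEX and lower after FeSO4. The call of Gm49668 after DEX was lost without NaCl/DEX mouse 2 (FDR = 0.0513) or NaCl/PBS mouse 1 (FDR = 0.056).

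The other members with the largest rises were 4833422C13Rik (LFC 1.47 ± 0.41, FDR = 0.0276), Gm15832 (1.25 ± 0.36, FDR = 0.0325) and 5430416N02Rik (0.99 ± 0.20, FDR = 0.00414), which lies upstream of the COPII coat gene Sec31a. The first lost its call when any NaCl/DEX mouse, NaCl/PBS mouse 1 or NaCl/PBS mouse 2 was left out, with an FDR of up to 0.111. Gm15832 lost it without NaCl/DEX mouse 1 or 3 or any NaCl/PBS mouse, with an FDR of up to 0.121.

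1810019D21Rik had the largest fall after DEX, to 93.4, 114 and 103 normalized counts (LFC -2.16 ± 0.17, FDR = 2.89e-06), almost the level seen after FeSO4. Esrp2 fell by an LFC of -0.62 ± 0.11. Gm4673, antisense to Usf2, an E-box-binding transcription factor gene, fell from 145, 211 and 102 to 45.1, 31.0 and 26.2 (LFC -2.16 ± 0.37, FDR = 0.00126), and it was not called after FeSO4, where its LFC was 0.14 (FDR = 0.744). Usf2 had -0.06 after DEX. 1810034E14Rik (-1.45), Gm17753 (-1.33), 9030616G12Rik (-1.30), 1810059H22Rik (-1.30), A630031M04Rik (-1.26) and 4933431E20Rik (-1.12) followed, and all 6 were lower after FeSO4 as well. Of these, A630031M04Rik lost its call after DEX without NaCl/DEX mouse 2 or 3 or NaCl/PBS mouse 1 or 3 (FDR up to 0.0971), and 4933431E20Rik without NaCl/DEX mouse 3 or NaCl/PBS mouse 3 (FDR up to 0.0826). A630031M04Rik also lost its call after FeSO4 without FeSO4/PBS mouse 1 or 3 or NaCl/PBS mouse 1 or 3 (FDR up to 0.0966).

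Set side by side, 19 members were lower after FeSO4 and after DEX, 4 were higher after both, 3 were lower after FeSO4 and higher after DEX, and 82 were called in neither. Of the members called after DEX, 3 were not called after FeSO4, 1 higher and 2 lower after DEX. Both comparisons use the same 3 NaCl/PBS mice, so a level that was high or low in those mice enters both. The overlap was not counted over all tested genes, so it cannot be called particular to the members.

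In iron-treated mice, DEX changed no member at the threshold. FeSO4/DEX against FeSO4/PBS gave 0 called members and 0 called genes (0% of all tested) with edgeR's quasi-likelihood test, and 0 members with DESeq2. At an unadjusted p under 0.05 there were 17 members and 900 genes. Without the filter on low counts 3 members were higher and 2 lower. The members with the smallest p were Gm5524 (LFC 1.12 ± 0.30, edgeR FDR = 0.696), A930005H10Rik (0.95 ± 0.28, FDR = 0.696) and 1700028E10Rik (0.78 ± 0.26, FDR = 0.709). A930005H10Rik, antisense to the diphthamide biosynthesis gene Dph5, had 24.2, 38.7 and 19.1 normalized counts in FeSO4/PBS mice and 43.5, 53.0 and 64.2 in FeSO4/DEX mice. With 3 mice against 3, an exact two-sided permutation test of a single gene cannot give a p below 0.1. This limit holds for each comparison of 3 mice against 3 given here, and the edgeR test is not a permutation test.

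Across the 186 members the LFCs of DEX in NaCl mice and in FeSO4 mice, which share no mouse, had a Spearman correlation of -0.03 (Pearson -0.20). For the 29 members called in NaCl mice it was -0.25. The median size of the LFC was 0.46 in NaCl mice and 0.23 in FeSO4 mice, against 0.25 and 0.16 over all tested genes. These values describe the members, which share libraries and scaling within each comparison.

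**Figure D3:**
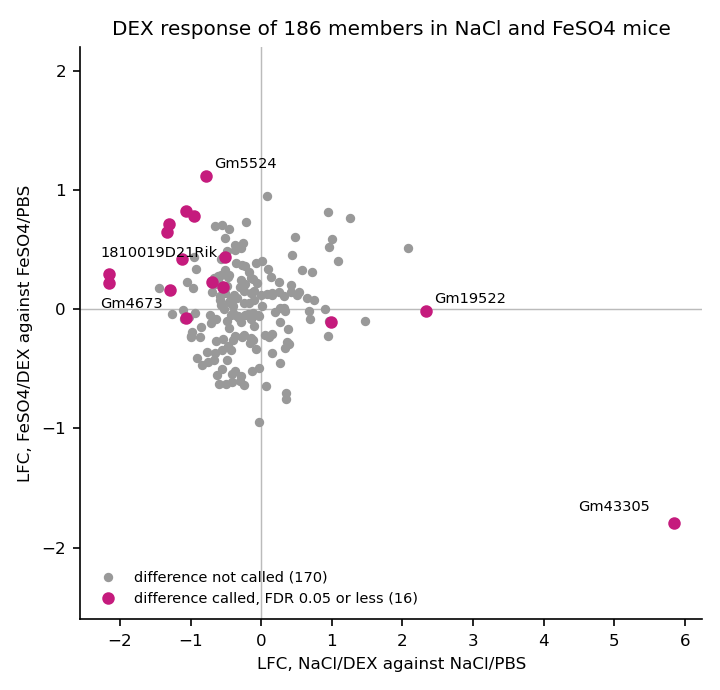
Each point is 1 member, with its LFC for DEX in NaCl mice on the x axis and its LFC for DEX in FeSO4 mice on the y axis. The 16 members whose responses differed at an FDR of 0.05 or less are coloured, and 13 of them lie left of 0 on the x axis, where DEX lowered the member in NaCl mice.

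The difference between both DEX responses, tested as an interaction, was called for 16 members. It was above 0 for 13 and below 0 for 3, where 2.99% and 3.2% of all tested genes were above and below 0. These counts depended on single mice, as 8 members were above 0 without NaCl/DEX mouse 3 or FeSO4/DEX mouse 3, and 6 were below 0 without FeSO4/PBS mouse 1. Among the 84 members that share no exon with a coding gene, 4 were above and 3 below 0. The median difference was 0.28 for the members and 0.02 for all tested genes. A value above 0 stands for a fall after DEX that was smaller in iron-treated mice, or turned. Of the members named next, 1810019D21Rik, Gm17753, 1700028E10Rik and Gm5524 were already lowered by FeSO4 without DEX, with LFCs of -2.37, -2.67, -2.11 and -2.96. Gm4673 was not, with an LFC of 0.14. The part of this lower start in the differences was not tested.

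The smallest FDR was that of 1810019D21Rik, 2.46 ± 0.25 (FDR = 7.64e-05), as DEX lowered it in NaCl mice but FeSO4/DEX mice had 112, 96.5 and 120.1 normalized counts against 98.8, 97.7 and 70.1 in FeSO4/PBS mice. Esrp2 had a difference of 0.84 ± 0.16 (FDR = 0.00678). Gm43305 gave the largest difference, -7.64 ± 1.16 (FDR = 0.00152), with 905, 295 and 1388 normalized counts in FeSO4/DEX mice, and -6.10 without FeSO4/PBS mouse 1. Gm17753 (1.98 ± 0.37), 1700028E10Rik (1.74 ± 0.34), Gm4673 (2.38 ± 0.49) and Gm5524 (1.90 ± 0.40) followed. For Gm4673 the FeSO4/DEX mice (253, 159 and 170.0) lay well above the NaCl/DEX mice. Gm19522 went the other way, with a difference of -2.34 ± 0.50 (FDR = 0.0124), as FeSO4/DEX mice had 25.1, 28.5 and 35.7.

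The iron effect was also seen in DEX-treated mice. FeSO4/DEX against NaCl/DEX gave 27 members higher and 44 lower, where 22.4% of all tested genes were higher and 20.9% lower. With library size as the only scaling 20 members were higher and 62 lower, beside 2151 and 4146 of all tested genes. Under TMM scaling the members' median LFC was -0.11 against 0.01 for all tested genes. In this comparison, which does not use the NaCl/PBS mice, the members' median was thus nearer to that of all genes than in FeSO4/PBS against NaCl/PBS. Called in both iron comparisons were 17 members higher and 37 lower, and 1 member, Gm43305, was higher in the first and lower in the second (LFC -3.03). This overlap, too, was not counted over all tested genes. The LFCs of both comparisons had a Spearman correlation of 0.72 over the 186 members and 0.77 over all tested genes. Gm15889 had the lowest LFC of all members in this comparison, -3.41 ± 0.32, from 277, 256 and 269.8 in NaCl/DEX mice to 12.6, 27.2 and 36.9 in FeSO4/DEX mice.

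The 186 members had 182 distinct nearest coding genes, of which 166 were tested. After FeSO4, 50 of these were higher and 48 lower, 30.1% and 28.9%, so the tilt towards falls among the members was not seen in the counts of their neighbours, and their median LFC was 0.03. After DEX in NaCl mice 21 of the neighbours were higher and 18 lower, 12.7% and 10.8%. Of all tested genes 6.5% and 7.15% were higher and lower, and of those with 10 reads in each library 7.32% and 7.38%. The neighbours were more abundant, with a median of 696 normalized counts against 232 for all tested genes. The part of their level in these shares was not tested. Over the 170 members with a tested neighbour, the Spearman correlation between the LFC of member and neighbour was 0.31 after FeSO4, 0.37 after DEX and 0.35 for FeSO4/DEX against NaCl/DEX. Where both were called after FeSO4, 39 pairs went the same way and 16 opposite ways, and in a further 35 pairs only the member was called. After DEX both were called in 7 pairs, all in the same direction, of which 6 were antisense overlapping pairs and 1 did not overlap. Without NaCl/DEX mouse 3 there were 4 such pairs. Overlapping pairs share sequence, and their reads may not be told apart, so that pairs are not independent.

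By position, the 20 members downstream of a tested coding gene on its strand had the highest correlation after FeSO4, 0.63, with 8 of 10 pairs in the same direction. In FeSO4/DEX against NaCl/DEX it was 0.58, with 6 of 7 pairs, and after DEX in NaCl mice 0.38. The 94 antisense overlapping pairs gave 0.31 with 21 of 29, the 20 divergent pairs 0.19 with 2 of 4, the 17 same-strand overlapping pairs 0.42 with 5 of 5, and the 17 upstream pairs -0.13 with 3 of 5. In FeSO4/DEX against NaCl/DEX these classes gave, in the same order, 0.35, 0.03, 0.34 and 0.42, and after DEX in NaCl mice 0.40, 0.40, 0.54 and 0.34. The sign for the upstream members thus turned between comparisons, and after DEX the downstream members did not have the highest correlation. For the downstream and the same-strand overlapping members, transcription that runs on from the coding gene and a transcript of its own give reads on the same strand, which cannot be told apart in these counts.

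**Figure D4:**
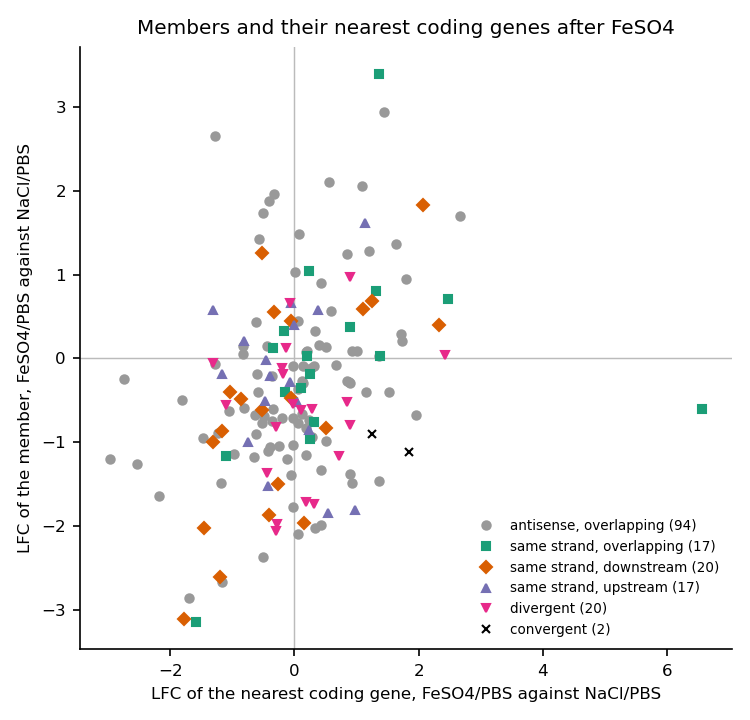
Each point is 1 of the 170 members whose nearest coding gene was tested, with the LFC of FeSO4/PBS against NaCl/PBS of the coding gene on the x axis and of the member on the y axis. Symbols give the position of the member, with the number of members, and most of the 20 downstream members lie at the lower left or upper right.

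Only 1 member had its nearest coding gene among the pathway genes listed for the treatments. Gm22146 lies antisense to Fkbp5, a GR target gene whose product is a co-chaperone of the receptor. Fkbp5 rose after DEX from 1341, 3654 and 1481 normalized counts to 9723, 10944 and 9940.4 (LFC 2.24 ± 0.29, FDR = 0.000143), while Gm22146 had 82.7, 139 and 144 before and 115, 106 and 131 after (LFC -0.05 ± 0.32, FDR = 0.943). After FeSO4, Fkbp5 was higher by 0.89 ± 0.28 (FDR = 0.0159) and Gm22146 lower by an LFC of -1.38 ± 0.34 (FDR = 0.00345), at 19.2, 65.1 and 56.1. With 11.6% of its exonic bases opposite to coding exons and 1.67% of the count of Fkbp5, Gm22146 did not follow the rise of Fkbp5.

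Of the further pairs given here with values of both genes, only 4833411C07Rik and Irs2 were called in opposite directions after FeSO4. 4833411C07Rik, convergent with the insulin receptor substrate gene Irs2 at a distance of 60898 bp, fell after FeSO4 (LFC -0.91 ± 0.21), while Irs2 rose (1.26 ± 0.39) and after DEX fell (-1.60 ± 0.41). Gm8883, 233904 bp from the fibronectin gene Fn1, fell after FeSO4 and after DEX by LFCs of -0.60 and -0.59, where Fn1 had 0.29 (FDR = 0.088) and -0.11. The DEX call of Gm8883 was lost without NaCl/DEX mouse 1 or 3 or NaCl/PBS mouse 1 or 2 (FDR up to 0.107). Gm33543, divergent from the endosome gene Eea1, rose after FeSO4 by 0.66 ± 0.22, a call that was lost without FeSO4/PBS mouse 2 (FDR = 0.107) or NaCl/PBS mouse 2 (FDR = 0.0797). 0610031O16Rik had an LFC of -0.61 (FDR = 0.0507) where the coding gene it overlaps, 4930579F01Rik, went from 0, 0.935 and 0 to 15.1, 50.9 and 48.5 normalized counts. Eif1a, a translation initiation factor gene with Gm3734 downstream of it, rose from 879.7, 1075 and 679 to 4141, 4664 and 4452 while Gm3734 did not pass the test.

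**Figure D5:**
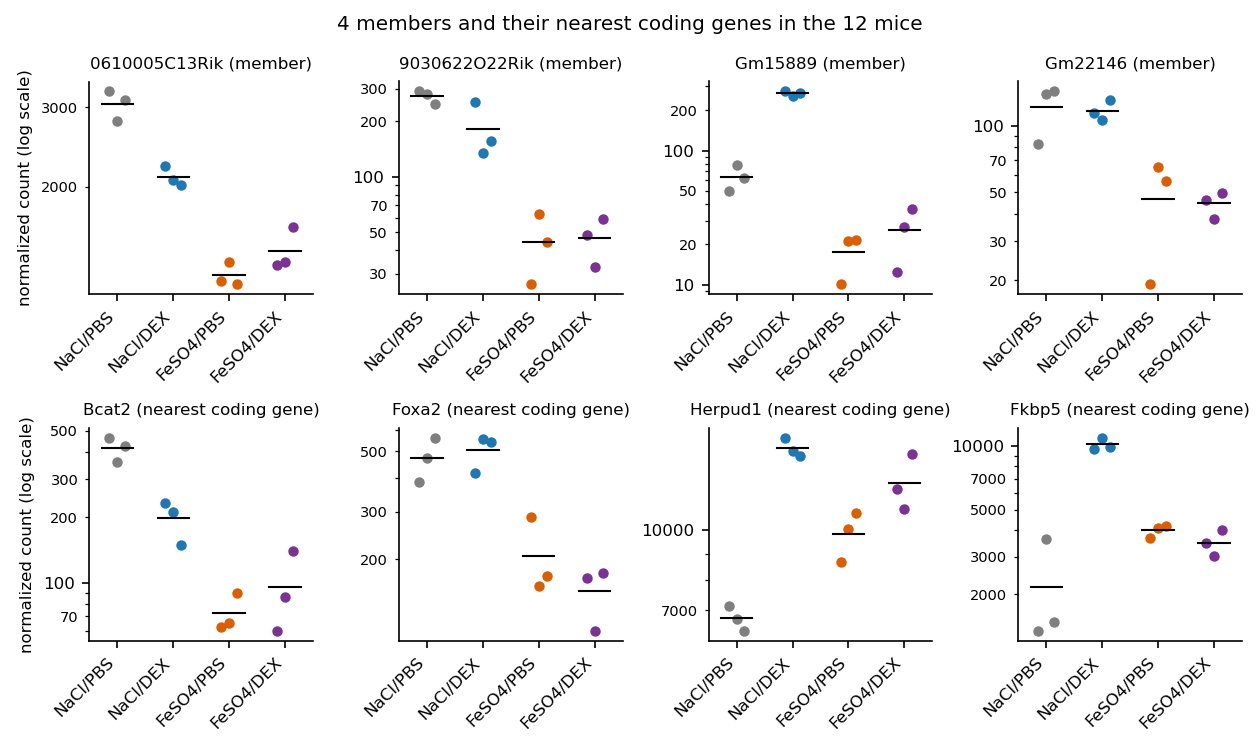
Upper panels give the normalized counts of 4 members and lower panels those of their nearest coding genes, as points for single mice (log axes, 3 mice per group) with bars for group means. 0610005C13Rik and Bcat2, and 9030622O22Rik and Foxa2, are lower together in iron-treated mice, Gm15889 and Herpud1 are higher together in NaCl/DEX mice and apart after FeSO4, and Gm22146 stays near its NaCl/PBS level in NaCl/DEX mice where Fkbp5 is highest.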

How the data were processed

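Liver RNA of 12 mice was sequenced from stranded, polyA-selected libraries with single-end reads of 100 bases. Per the labels and the study's methods, the authors aligned the reads to mm39 with STAR 2.7.10b, which also counted reads per gene, and deposited 1 table of raw counts without normalization. Its 12 columns were each mapped to a mouse by their title, and 0 columns were left over. The study's methods name GENCODE v28 for the splice junctions, and the strand column used is not given in the sources used here. Gene types, exons and coordinates were taken here from another release, GENCODE vM39 (GRCm39), and 665 gene IDs of the table had no entry in it.

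The members, the gene lists and the tests were chosen with earlier results of these data known. A member is a lncRNA gene with a Gm or Rik symbol and at least 10 reads in each library. Counts of all 13857 genes that passed edgeR's filter on low counts were fitted with edgeR 4.0.16 (limma 3.58.1, R 4.3.3) by the quasi-likelihood test, with TMM scaling, 1 mean per group and all 12 libraries sharing the estimate of spread. P-values were adjusted by Benjamini and Hochberg over these genes, and a gene was called at an FDR of 0.05 or less. LFCs were shrunk with a prior count of 0.125. Normalized counts are counts divided by TMM-scaled library sizes. The labels give no litter or cage, so p-values measure the spread between these mice.

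Members were named by rule, namely the 8 largest non-overlapping rises and falls after FeSO4 and after DEX, the 3 smallest p for DEX in FeSO4 mice, the 6 smallest p for the difference, the 8 most abundant, those next to a listed pathway gene, and the 2 most abundant per orientation. The nearest coding gene was the one with the smallest gap. Alternatives were other scalings, DESeq2 1.42.0, other filters, the replicate number as a block and leaving out each mouse. The fit was tested on simulated data. The count of 100-base windows that occur once used Python 3.11.15, numpy 2.4.6 and pandas 2.3.3, and plots used matplotlib 3.10.9. Promoters and microRNAs came from RefSeq (GRCm38.p6), and promoters were placed by exact match to GRCm39. The named rule also lists Gm42418 and Gm26917, which are not members.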

Additional observations from a re-analysis of the deposited data

Results flagged for a closer look

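For 16 members the response to DEX in FeSO4 mice differed from that in NaCl mice by the interaction test of edgeR (FDR of 0.05 or less), and each is given as the LFC of DEX in FeSO4 mice minus that in NaCl mice. Below 0 were Gm43305 (-7.64), Gm19522 (-2.34) and 5430416N02Rik (-1.10), which all rose after DEX in NaCl mice. Above 0 were 1810019D21Rik (2.46), Gm4673 (2.38), 9030616G12Rik (2.02), Gm17753 (1.98), Gm5524 (1.90), 1700028E10Rik (1.74), 4933431E20Rik (1.54), 1810059H22Rik (1.46), Gm33989 (1.00) and 0610005C13Rik (0.72). Gm13522, antisense to the nebulin gene Neb, had 1.89, Gm16548, antisense to the coagulation factor gene F5, 0.95, and Gm11789, antisense to the glucagon receptor gene Gcgr, 0.92. For 1810059H22Rik, 4933431E20Rik, 5430416N02Rik, Gm13522, Gm16548 and Gm33989 the call was lost when any of several single mice was left out, with an FDR of up to 0.124. Gm43305 is the member with the fewest windows that occur once in the genome, and its difference was -6.10 without FeSO4/PBS mouse 1.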

How the results depend on the processing

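The tilt towards falls after FeSO4 was seen under each alternative run, with 25 to 30 members higher and 61 to 74 lower when single mice were left out. Among members with at least 20 reads in each library, 43 were lower after FeSO4, 5 higher after DEX in NaCl mice, and 17 higher and 27 lower in FeSO4/DEX against NaCl/DEX, from fewer genes. Over all 593 Gm and Rik lncRNA genes that passed the filter, 104 were higher and 206 lower after FeSO4 (17.5% and 34.7%). DEX in NaCl mice gave 22 and 46 (3.71% and 7.76%), and FeSO4/DEX against NaCl/DEX 101 and 133 (17.0% and 22.4%). In the difference 24 lay above and 7 below 0 (4.05% and 1.18%). All tested genes gave, in the same order, 27.2% and 27.3%, 6.5% and 7.15%, 22.4% and 20.9%, and 2.99% and 3.2%. The share lower after DEX was thus near that of all tested genes. The 84 members that share no exon with a coding gene were an alternative chosen after seeing the data. Their counts, in the same order, were 13 and 36, 4 and 11, 10 and 24, and 4 above and 3 below 0. Without the filter on low counts 13 members were higher after DEX in NaCl mice, 3 were higher and 2 lower after DEX in FeSO4 mice, and 22 lay above and 8 below 0 in the difference. DESeq2 gave 6 below 0. After DEX in NaCl mice 37 members were lower with library size alone, as were 1776 of all tested genes. Beyond an LFC of 1, 13 members were lower, against 3.41% of all tested genes. The cause of these shifts was not tested where the alternative did not change the genes or mice used.

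Leaving out single mice gave 5 (without NaCl/PBS mouse 1) to 13 (without FeSO4/PBS mouse 1) members higher and 12 (without NaCl/DEX mouse 3) to 25 (without FeSO4/PBS mouse 1) lower after DEX in NaCl mice. It gave 0 in FeSO4 mice, 8 (without NaCl/DEX mouse 3 or FeSO4/DEX mouse 3) to 14 above and 2 to 6 (without FeSO4/PBS mouse 1) below 0 in the difference, and 18 to 30 higher and 33 to 51 lower in FeSO4/DEX against NaCl/DEX. Pairs of member and neighbour called in the same direction numbered 34 to 40 after FeSO4 and 4 (without NaCl/DEX mouse 3) to 9 after DEX, and 13 and 1 among members that overlap no coding gene. A tally of the counts of members and pairs over left-out mice and alternative fits marked 234 results as the same and 36 as moved. Another tally over left-out mice and alternative fits covered only chosen LFCs of named members. In it 1175 results kept their side of the threshold, 29 passed it newly, 25 no longer passed it, and none reversed. For the difference between the DEX responses it held only the 6 members with the smallest p. The lost calls of the 6 other members listed above for that difference are therefore not in it.

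Same-numbered mice deviated from their group means with correlations of -0.092 to 0.129, so the numbers were not taken to pair the mice. With the replicate number as a block, 29 members were higher and 73 lower after FeSO4, 9 and 20 for DEX in NaCl mice, 0 and 0 after DEX in FeSO4 mice, and 29 and 41 in FeSO4/DEX against NaCl/DEX, with 11 above and 2 below 0 in the difference. Depth also limits the members, whose median level was 61.5 normalized counts against 231.9 for all tested genes.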
